A study of Drosophila melanogaster with 9 samples.

Results

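Transcript levels of 10 autophagy genes were followed in S2R+ cells of Drosophila melanogaster kept in 3 media. The genes were taken by name from the 17562 gene identifiers counted, and all 10 were found: Atg1, Atg13, Atg101, Atg9, Atg18a, Atg5, Atg7, Atg8a, Atg8b and ref(2)P. S2R+ is an adherent line of embryonic origin with features of hemocytes, the blood cells of the fly. MB10, the standard medium, is M3 with bactopeptone, yeast extract and 10% fetal bovine serum. The media M3 + 10% FEx and, at a lower dose, M3 + 2.5% FEx hold neither serum nor these supplements, and hold in their place 10% or 2.5% of a heated and filtered extract of adult Oregon-R flies. Each medium was sampled as 3 numbered replicates of 1 line, and how separate their cultures were is not stated. The cells in M3 + 2.5% FEx descend from those adapted to M3 + 10% FEx, so an effect of a medium and the history of its line cannot be told apart.

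Autophagy carries cytoplasm to the lysosome for breakdown and is known as a response to nutrient shortage. The kinase Atg1, held with Atg13 and Atg101 in 1 complex and restrained by TOR when nutrients are plentiful, starts the process. Atg9 vesicles bring membrane, Atg18a binds the lipid PI3P on the growing membrane, and the conjugation enzymes Atg5 and Atg7 help to attach the ubiquitin-like protein Atg8a to it. The receptor ref(2)P, the fly homolog of mammalian p62, binds ubiquitinated cargo and Atg8a and is itself broken down by autophagy. The transcript levels reported here measure neither the flux of autophagy nor the amount of any protein.

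The libraries held 20694827 to 29076620 counts, and a count of 3, used as the floor, corresponded to 0.106 to 0.151 CPM, counts scaled to library size with TMM factors (trimmed mean of M-values). Of the 14044 genes with a count, 8705 passed the filter on low counts and were tested. Among 11 hemocyte markers, 10 had more than 3 counts in every library of each medium, and NimC1 was close to 0. Their summed level was 2133 to 2397 in MB10, 2017 to 2069 in M3 + 2.5% FEx and 1800 to 1895 CPM in M3 + 10% FEx. The markers did not move together: on average Pxn went from 377 to 89.4 CPM and Pvr from 771 to 554 CPM between MB10 and M3 + 10% FEx, whereas ush went from 336 to 512 CPM and He from 0.680 to 2.79 CPM. Of 10 adult fly markers, 4, 4 and 7 passed the same floor in MB10, 2.5% FEx and 10% FEx, in this order, with sums of 113 to 125, 119 to 141 and 91.0 to 96.4 CPM. TpnC4 and elav carried nearly all of this, since the other 8 summed to at most 2.22 CPM in any library. None of 7 testis markers passed the floor in any medium. The part of these marker differences in the results was not tested, and in RNA from whole cultures fewer cells of a type and less RNA per cell cannot be told apart.

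Atg1 was higher and Atg5 lower in both FEx media than in MB10, Atg9 was higher in M3 + 10% FEx and ref(2)P lower in M3 + 2.5% FEx. A gene was called at an adjusted p under 0.05 in edgeR's quasi-likelihood test, and as differentially expressed (DE) where its log2 fold change was also above 1 or below -1. Of the 10 genes 9 were tested, and 0 were DE in any comparison. In M3 + 2.5% FEx against MB10 the call was higher for Atg1 and lower for Atg5 and ref(2)P, that is 1 and 2 of 9 genes, where 22.0% of all tested genes were higher, 22.2% lower and 8.52% DE. In M3 + 10% FEx against MB10 the calls were Atg1 and Atg9 higher and Atg5 lower, against 25.5% of all tested genes higher, 27.6% lower and 11.0% DE. Between the FEx media, Atg9 and ref(2)P were higher at 10% and 0 genes lower, against 10.5% of all tested genes higher, 11.3% lower and 3.47% DE. Scaling by library totals alone turned that background split from 913 higher and 983 lower into 654 and 1338. The median log2 fold change of the 9 genes was -0.12, -0.02 and 0.10 in the 3 comparisons, beside -0.04, -0.04 and -0.00 over all tested genes. Their median absolute log2 fold change was 0.12, 0.13 and 0.10, beside 0.24, 0.28 and 0.16. The comparisons with MB10 share its 3 libraries and are not independent of each other.

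**Figure D1:**
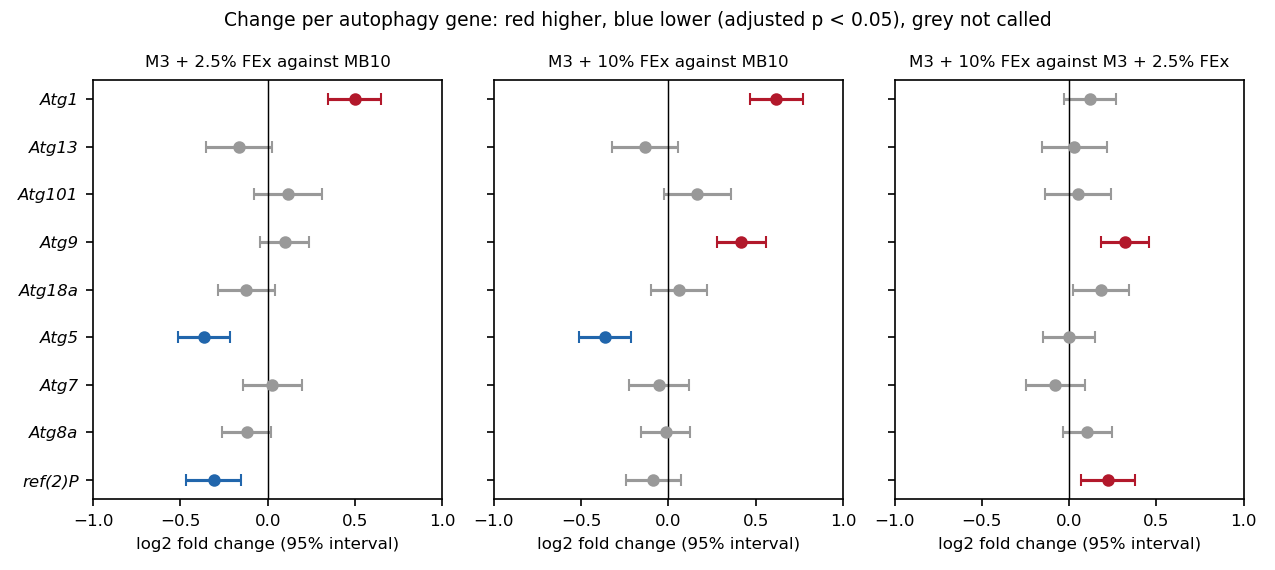
Log2 fold change of the 9 tested autophagy genes (x axis; points, with lines for the 95% interval of the fit) in the 3 comparisons. Red marks genes called higher and blue genes called lower at an adjusted p under 0.05, grey those not called; Atg1 reached 0.50 and 0.62 against MB10, Atg5 was at -0.37 in both, and no point passed 1 or -1.

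Within the initiation complex, the kinase Atg1 (FBgn0260945, 3L:12784429-12805116, minus strand; positions are those of BDGP6.54) was the gene with the largest difference. Its levels were 31.3, 32.5 and 28.2 in MB10, 43.3, 42.5 and 44.0 in M3 + 2.5% FEx, and 46.1, 46.5 and 48.6 CPM in M3 + 10% FEx. All 6 FEx libraries thus lay above all 3 MB10 libraries, and the FEx media also did not overlap each other. The rise against MB10 was 1.41-fold in M3 + 2.5% FEx (log2 fold change 0.50, SE 0.07, n = 3 and 3, edgeR adjusted p = 0.000142) and 1.53-fold in M3 + 10% FEx (0.62, SE 0.07, n = 3 and 3, edgeR adjusted p = 1.53e-05). Among all tested genes 11.7% and 11.9% had a larger rise in these comparisons. From 2.5% to 10% FEx the log2 difference was 0.12 with a 95% interval from -0.03 to 0.27, and it was not called (edgeR adjusted p = 0.234). Groups without overlap were common over all 8705 tested genes. Against MB10, 2196 genes lay higher and 2288 lower in all M3 + 2.5% FEx libraries, and 2381 and 2593 in all M3 + 10% FEx libraries. Between the FEx media 2030 genes lay higher and 2069 lower at 10%. A lack of overlap, here and below, stands beside these counts.

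The scaffold subunit Atg13 (FBgn0261108, 3R:8349815-8352817, plus strand) gave no call. It stood at 50.0, 50.3 and 41.1 in MB10, 40.3, 43.1 and 42.7 in M3 + 2.5% FEx and 41.4, 41.5 and 45.9 CPM in M3 + 10% FEx. The MB10 libraries disagreed among themselves, with replicate 3 inside the range of the FEx libraries. The log2 fold changes of -0.16 (95% interval -0.35 to 0.02) and -0.13 (-0.32 to 0.05) were not called in edgeR (adjusted p = 0.140 and 0.208). Without MB10 replicate 3 they were -0.26 and -0.23 and were called (edgeR adjusted p = 0.00996 and 0.0146), so this 1 library decided the call.

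Atg101, which stabilises Atg13 in the complex (FBgn0030960, X:18791668-18793517, plus strand), had the fewest counts of the expressed genes. Its levels were 15.3, 17.0 and 15.3 in MB10, 18.3, 16.3 and 17.1 in M3 + 2.5% FEx and 16.5, 18.5 and 18.5 CPM in M3 + 10% FEx. The groups overlapped in every comparison. Its log2 fold changes were 0.12 (95% interval -0.08 to 0.31) and 0.17 (-0.03 to 0.36), neither called (edgeR adjusted p = 0.306 and 0.133), although leaving out MB10 replicate 2 gave 0.24 and a call in M3 + 10% FEx (edgeR adjusted p = 0.0483).

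The ratio of 2 genes' counts in the same library does not depend on the scaling between libraries. The pairs were picked after the values were seen, so the ratios are a description with no test. Counts of Atg1 were 0.626 to 0.687 times those of Atg13 in MB10, 0.987 to 1.08 times in M3 + 2.5% FEx and 1.06 to 1.12 times in M3 + 10% FEx. The kinase thus went from fewer reads than its scaffold to about as many. Against Atg101 the ratio was 1.85 to 2.05 in MB10, 2.38 to 2.61 in M3 + 2.5% FEx and 2.51 to 2.79 in M3 + 10% FEx, again with MB10 apart from both FEx media.

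**Figure D2:**
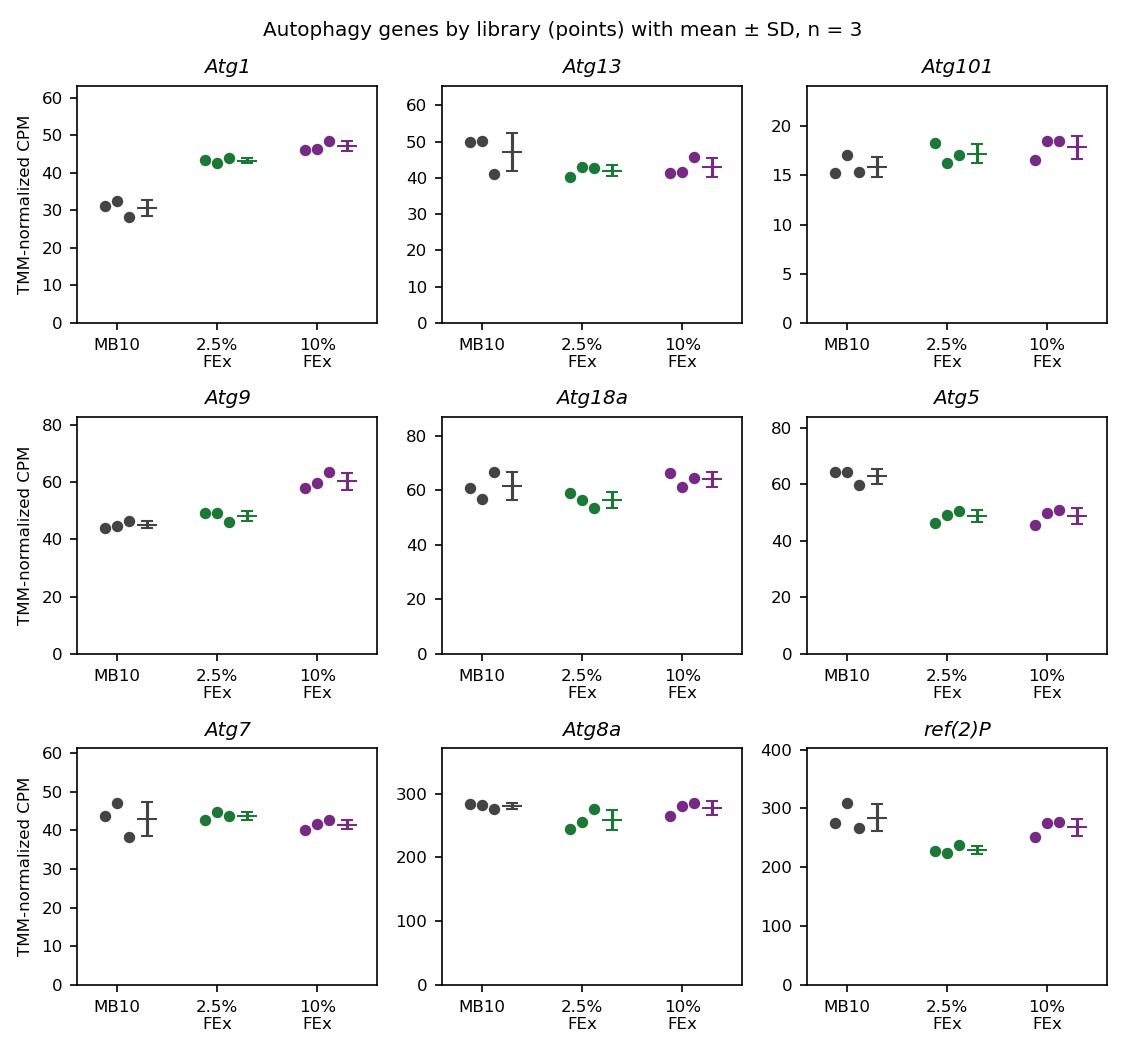
Level of each expressed autophagy gene in TMM-normalized CPM (y axis, from 0) in the 3 libraries of each medium (points), with mean and SD beside them (n = 3). Atg1 was at 28.2 to 32.5 CPM in MB10 and at 42.5 CPM or more in every FEx library, Atg9 rose in M3 + 10% FEx to 57.8 to 63.6 CPM, and Atg5 was below its MB10 range in both FEx media.

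Of the genes for membrane supply, Atg9, the transmembrane protein of the vesicles that seed the autophagosome (FBgn0034110, 2R:16294400-16297232, plus strand), set the FEx media apart. It was at 44.1, 44.8 and 46.5 in MB10, at 49.3, 49.4 and 46.2 in M3 + 2.5% FEx, and at 57.8, 59.6 and 63.6 CPM in M3 + 10% FEx. The M3 + 10% FEx libraries lay above all others, while MB10 and M3 + 2.5% FEx overlapped. The rise in M3 + 10% FEx was 1.34-fold against MB10 (log2 fold change 0.42, SE 0.06, n = 3 and 3, edgeR adjusted p = 0.000191) and 1.25-fold against M3 + 2.5% FEx (0.32, SE 0.06, edgeR adjusted p = 0.00409). In M3 + 2.5% FEx against MB10 it was 0.10 with a 95% interval from -0.04 to 0.24 (edgeR adjusted p = 0.242). The direct test between the FEx media is also the test of the difference between these changes.

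Atg18a, a WIPI-family binder of PI3P (FBgn0035850, 3L:8186857-8191118, plus strand), ranged from 53.6 to 66.8 CPM over the 9 libraries. It read 60.8, 56.7 and 66.8 in MB10, 59.1, 56.5 and 53.6 in M3 + 2.5% FEx and 66.4, 61.1 and 64.4 CPM in M3 + 10% FEx. MB10 overlapped both FEx media, whereas the FEx media did not overlap each other. The log2 fold changes were -0.12 (95% interval -0.29 to 0.04), 0.06 (-0.10 to 0.22) and, between the FEx media, 0.18 (0.02 to 0.34), none of them called in edgeR (adjusted p = 0.199, 0.524 and 0.102). Leaving out MB10 replicate 3 gave the same 0.18 between the FEx media with a call (edgeR adjusted p = 0.0372).

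Among the conjugation genes, Atg5, which is joined to Atg12 in the complex that directs lipidation of Atg8a (FBgn0029943, X:7314622-7323770, minus strand), was lower in both FEx media. Its levels were 64.3, 64.5 and 59.6 in MB10, 46.5, 49.1 and 50.5 in M3 + 2.5% FEx and 45.7, 49.7 and 50.9 CPM in M3 + 10% FEx. Every FEx library lay below every MB10 library, and the FEx media lay on top of each other. It fell 1.29-fold in each of them against MB10, with log2 fold changes of -0.37 and -0.37 (SE 0.07 and 0.07, n = 3 and 3, edgeR adjusted p = 0.00113 and 0.000751). Among all tested genes 16.0% and 20.8% had a larger fall. Between the FEx media the log2 difference was 0.00, with a 95% interval from -0.15 to 0.15.

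Atg7, the E1-like enzyme that activates Atg8a and Atg12 (FBgn0034366, 2R:18620466-18625044, minus strand), was not called either. It was at 43.6, 47.1 and 38.4 in MB10, 42.8, 44.8 and 43.8 in M3 + 2.5% FEx and 40.1, 41.7 and 42.6 CPM in M3 + 10% FEx. The MB10 libraries spanned both FEx media. The 95% intervals ran from -0.14 to 0.19 and from -0.22 to 0.12 around log2 fold changes of 0.03 and -0.05 (edgeR adjusted p = 0.814 and 0.586). Atg5 had 1.37 to 1.55 times the counts of Atg7 in MB10, 1.09 to 1.15 times in M3 + 2.5% FEx and 1.14 to 1.19 times in M3 + 10% FEx, so the ratio of these conjugation genes was lower in every FEx library.

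Atg8a, the ubiquitin-like protein that coats the autophagosome (FBgn0052672, X:10764878-10768338, minus strand), was abundant in all 3 media. Levels were 283, 282 and 276 in MB10, 244, 255 and 275 in M3 + 2.5% FEx and 265, 281 and 286 CPM in M3 + 10% FEx. The M3 + 2.5% FEx libraries lay below those of MB10, the highest of them by less than 1 SD of either medium, and M3 + 10% FEx overlapped both. The log2 fold changes were -0.12 (95% interval -0.26 to 0.02) and -0.02 (-0.16 to 0.12), not called in edgeR (adjusted p = 0.154 and 0.853). The intronless paralog Atg8b (FBgn0038539, 3R:17724410-17725063, minus strand), known for its expression in the testis, had 0 counts in all 9 libraries and was not tested. A count of 0 allows up to 0.106 to 0.151 CPM in a library, for counting error only. How reads that fit both paralogs were assigned is not given in the sources used here, and the testis markers were also near 0.

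The cargo receptor ref(2)P (FBgn0003231, 2L:19542468-19545548, plus strand) fell in M3 + 2.5% FEx. It was at 276, 310 and 267 in MB10, 227, 224 and 237 in M3 + 2.5% FEx and 252, 275 and 277 CPM in M3 + 10% FEx. The M3 + 2.5% FEx libraries were the lowest of all 9, while MB10 and M3 + 10% FEx overlapped. Against MB10 the fall was 1.24-fold in M3 + 2.5% FEx (log2 fold change -0.31, SE 0.07, n = 3 and 3, edgeR adjusted p = 0.00469), and 20.6% of all tested genes fell further. In M3 + 10% FEx it was -0.09 (95% interval -0.24 to 0.07, edgeR adjusted p = 0.333).

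The difference of ref(2)P between the FEx media, 0.22 on the log2 scale (SE 0.07, edgeR adjusted p = 0.0445), passed the threshold narrowly. It kept its sign under all 17 alternatives and was called under 7 of them. It was not called under DESeq2 size factors, library totals, no filter or a replicate term (adjusted p = 0.0524, 0.191, 0.0729 and 0.0810). Leaving out MB10 replicate 1, any of the M3 + 2.5% FEx libraries, or M3 + 10% FEx replicate 2 or 3 also lost the call, with log2 differences of 0.20 to 0.24 and adjusted p from 0.0762 to 0.177. The gene shares 173 exonic bases with CG10337 on the opposite strand, and whether the counting used strand is not given in the sources used here. Counts of Atg8a were 0.910 to 1.03 times those of ref(2)P in MB10, 1.07 to 1.16 times in M3 + 2.5% FEx and 1.02 to 1.05 times in M3 + 10% FEx, so this ratio was highest in M3 + 2.5% FEx.

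**Figure D3:**
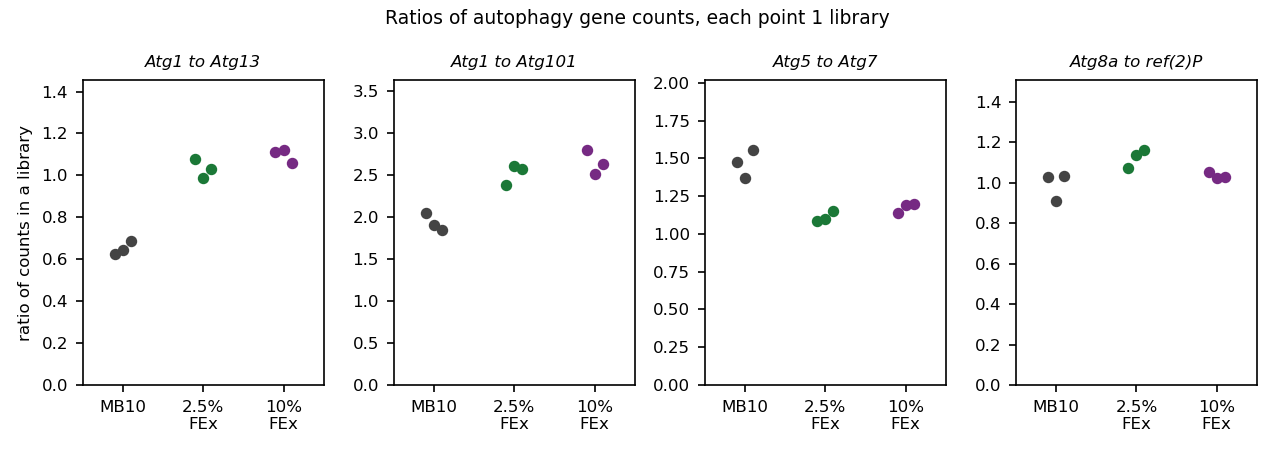
Ratio of the counts of 2 autophagy genes in the same library (y axis, from 0, not corrected for length) by medium, each point 1 library. The ratio of Atg1 to Atg13 was at most 0.687 in MB10 and at least 0.987 in the FEx media, and that of Atg5 to Atg7 was at least 1.37 in MB10 and at most 1.19 in the FEx media.

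Levels of different genes were compared per length, as RPKM over the merged exons. These hold the exons of every annotated transcript of a gene, so the order rests on this choice of length. For Atg1 they came to 4148 bases from 2 transcripts, and for Atg101 to 1850 bases from 1. In MB10 the order was Atg8a at 165 ± 2.4 RPKM (SD, n = 3), ref(2)P at 119 ± 9.4, Atg5 at 44.3 ± 2.0, Atg18a at 21.0 ± 1.7, Atg7 at 18.0 ± 1.8, Atg9 at 15.9 ± 0.43, Atg13 at 15.7 ± 1.7, Atg101 at 8.58 ± 0.54 and Atg1 at 7.39 ± 0.53 RPKM. The 4 genes from Atg18a to Atg13 overlapped with their neighbours in this order, and the others did not. The transcripts of the conjugated protein and the cargo receptor thus led the order by a wide margin, and that of the initiating kinase was the lowest among the expressed genes.

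The FEx media changed the lower end of the order. In M3 + 2.5% FEx Atg1 stood at 10.4 ± 0.18 RPKM, above Atg101 at 9.30 ± 0.53 RPKM, with no overlap, and only Atg18a and Atg7 overlapped as neighbours. In M3 + 10% FEx Atg1 was at 11.3 ± 0.32 and Atg101 at 9.65 ± 0.63 RPKM. There Atg9, at 21.3 ± 1.1 RPKM, also stood above Atg7 at 17.3 ± 0.51 RPKM and overlapped Atg18a at 21.9 ± 0.91 RPKM.

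**Figure D4:**
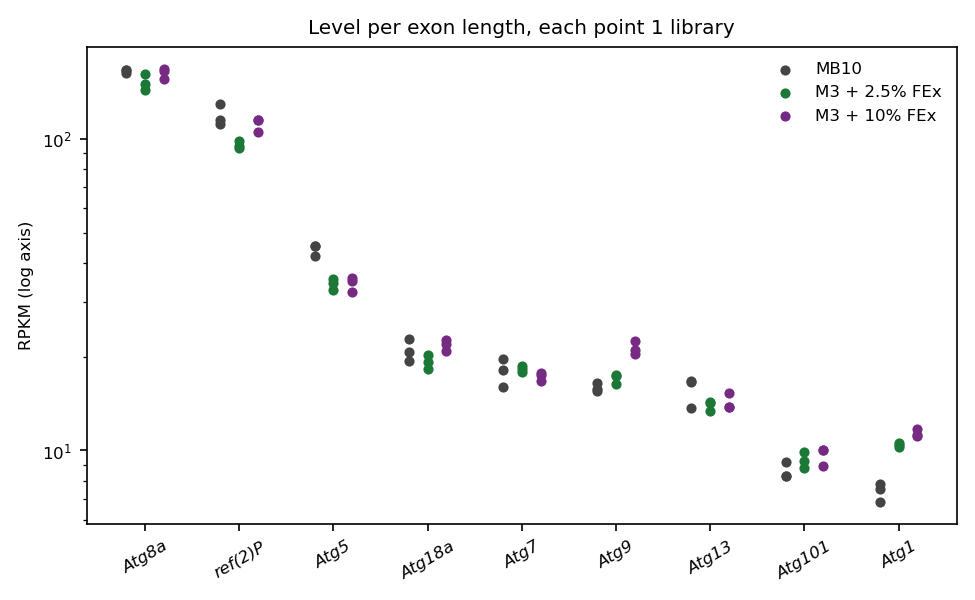
Level per exon length in RPKM (y axis, log scale) of the 9 expressed autophagy genes in the order of MB10, each point 1 library, colored by medium. Atg8a and ref(2)P stand above 90 RPKM in every library and the rest below 50, with Atg1 rising past Atg101 in both FEx media.

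For the 2 most abundant members, the genes with the most similar course over the 9 libraries were ranked by Pearson's r of log2 CPM among all tested genes. The libraries fall into only 3 media, so r is a description. Closest to ref(2)P were lncRNA:CR42862 (r = 0.968), CG10801 (0.961) and Stt3B, a catalytic subunit of the oligosaccharyltransferase (0.955), and 21 genes were above 0.9. The means of Stt3B were 391, 292 and 357 CPM in MB10, 2.5% FEx and 10% FEx, in this order, with the same low medium as ref(2)P. Closest to Atg8a were CG33641 (r = 0.908), RpL15 (0.903), which encodes a ribosomal protein, and the pigmentation gene y (0.894), and only 2 genes were above 0.9. RpL15 was at 2374, 2026 and 2321 CPM, whereas y stayed below 1 CPM on average.

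A wider list of 49 genes of the same pathway, all of them tested, gave mixed directions in M3 + 2.5% FEx and more rises in M3 + 10% FEx. Against MB10, 8 were higher and 8 lower in M3 + 2.5% FEx, and 17 higher and 7 lower in M3 + 10% FEx, with 1 DE gene in each. Between the FEx media 10 were higher at 10% and 1 lower, with 0 DE. These are 16, 24 and 11 of 49 genes called, that is 32.7%, 49.0% and 22.4% of the list, beside 44.2%, 53.1% and 21.8% of all tested genes. The list's median log2 fold changes were 0.05, 0.12 and 0.11. Without MB10 replicate 2, 14 genes were higher in M3 + 2.5% FEx. In that fit 2233 of 8793 tested genes were higher, beside 1912 of 8705 in the main fit. Between the FEx media, 7 genes were called without M3 + 2.5% FEx replicate 2 or M3 + 10% FEx replicate 1, and 17 without MB10 replicate 3. Of all tested genes 12.8%, 14.0% and 30.5% were called in these fits, in this order, beside 21.8% in the main fit.

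The counts by role that follow come from groups of 1 to 12 genes and were not tested against all tested genes. The shares of these were 22.0% higher against 22.2% lower at 2.5% FEx and 25.5% against 27.6% at 10% FEx. Atg17, the remaining subunit of the Atg1 complex, rose by 0.25 and 0.38 on the log2 scale in M3 + 2.5% and M3 + 10% FEx (edgeR adjusted p = 0.0186 and 0.00128). Of the 3 other membrane genes, 2 rose in M3 + 2.5% FEx and 3 in M3 + 10% FEx. Atg18b, a paralog of Atg18a, was at 25.5 to 26.7 in MB10, 32.4 to 34.3 in M3 + 2.5% FEx and 40.8 to 43.8 CPM in M3 + 10% FEx, a stepwise order with no overlap. It rose by 0.69 against MB10 in M3 + 10% FEx (SE 0.06, edgeR adjusted p = 3.26e-06). Tango5, also known as Vmp1, an ER membrane protein needed for the growing autophagosome, was at 76.6, 79.6 and 77.4 CPM in M3 + 2.5% FEx and 107 to 115 CPM in M3 + 10% FEx, and was 0.50 higher at 10% (SE 0.06, edgeR adjusted p = 0.000113). Of the 4 cargo genes 2 rose in each FEx medium. Keap1, the adaptor that holds back the Nrf2 homolog cnc and a known partner of the p62 family, ranged from 25.8 to 30.6 CPM in MB10, and rose to 42.8 to 45.4 CPM in M3 + 2.5% FEx and 40.6 to 46.7 CPM in M3 + 10% FEx (log2 fold changes 0.64 and 0.60, edgeR adjusted p = 7.51e-05 and 7.42e-05).

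Of the 6 other conjugation genes, 2 fell and 0 rose in M3 + 2.5% FEx, and 2 fell and 1 rose in M3 + 10% FEx, beside 22.2% and 27.6% of all tested genes lower. The 1 that rose was Atg4a, at 0.18 (edgeR adjusted p = 0.0481), with groups that overlapped. Atg12, the conjugation partner of Atg5, had log2 fold changes of -0.38 and -0.49 (edgeR adjusted p = 0.0227 and 0.00489). The E2-like enzyme Atg3 had -0.20 and -0.25 (edgeR adjusted p = 0.0313 and 0.00843). In the Vps34 complex, the lipid kinase that makes PI3P, 1 of 5 genes was called in M3 + 2.5% FEx, namely Atg6, the Beclin homolog, at -0.41 (edgeR adjusted p = 0.000163). In M3 + 10% FEx 3 of 5 were called, with Uvrag at 0.43 and Pi3K59F at 0.38 higher and Atg6 at -0.32 lower (edgeR adjusted p = 0.000934, 0.0382 and 0.000628). Of these only Pi3K59F overlapped MB10, at 38.6 to 47.1 CPM against 28.4 to 38.8 CPM. Atg17, Uvrag, Atg12, Atg3, Atg4a and Atg6 were named after their values had been seen. Atg12 shares 64 of its 469 exonic bases with ND-SGDH, Uvrag 600 of 2520 with asRNA:CR44972 and Atg4a 2098 of 4078 with CG4629, all on the opposite strand. Pi3K59F shares 73 of 3164 with CG30184 on the same strand. Whether the counting used strand is not given in the sources used here, so the counts of these genes are uncertain to that extent.

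The catalytic subunit of that complex, Pi3K59F, better known as Vps34, was at 34.7, 30.5 and 25.5 CPM in M3 + 2.5% FEx and 47.1, 38.6 and 38.8 CPM in M3 + 10% FEx. Its difference of 0.46 between them (SE 0.14, edgeR adjusted p = 0.0365) was called in 10 of 17 alternatives. It was lost under library totals and a replicate term (adjusted p = 0.0546 and 0.0627) and, with values of 0.35 to 0.51, without M3 + 2.5% FEx replicate 2 or 3 or without any of the M3 + 10% FEx libraries. Of the 11 genes for fusion with the lysosome, 1 fell in M3 + 2.5% FEx and 1 rose in M3 + 10% FEx. This was 9.09% called in each, beside 44.2% and 53.1% of all tested genes.

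**Figure D5:**
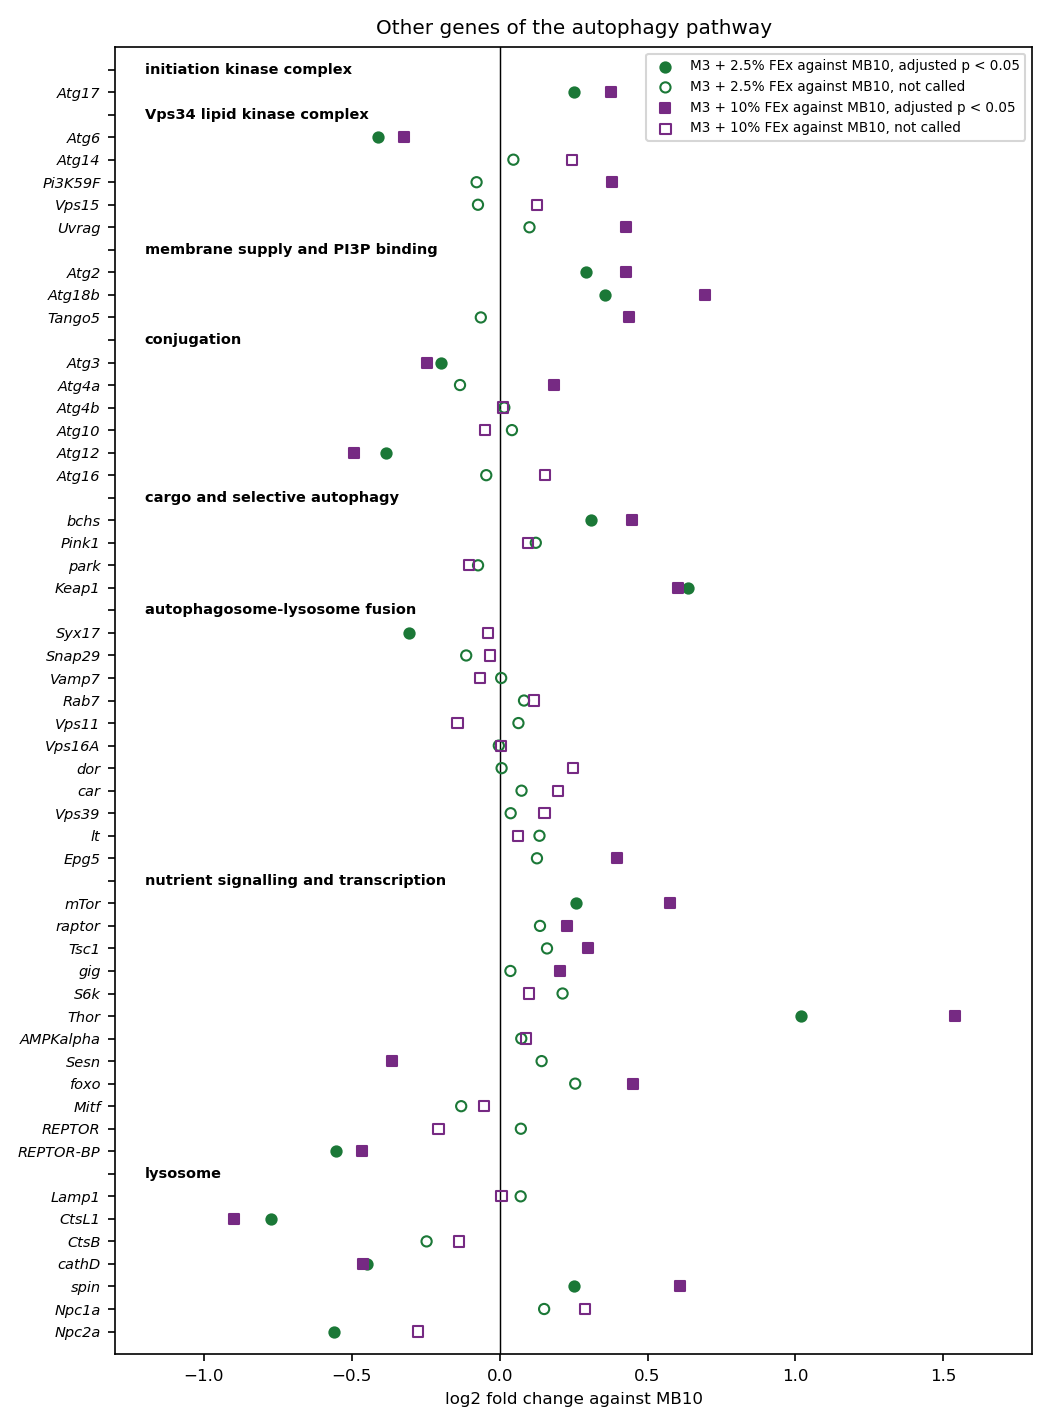
Log2 fold change against MB10 (x axis) of the 49 other genes of the pathway, grouped by role, for M3 + 2.5% FEx (circles) and M3 + 10% FEx (squares); filled symbols were called at an adjusted p under 0.05. Thor lies farthest to the right at 1.02 and 1.54, CtsL1 farthest to the left at -0.77 and -0.90, with 8 genes called on each side in M3 + 2.5% FEx.

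The largest rise on the list against MB10 was that of Thor and the largest fall that of CtsL1. Thor encodes 4E-BP, a repressor of cap-dependent translation that TOR holds inactive. It was at 12.1 to 13.6 in MB10, 23.9 to 26.9 in M3 + 2.5% FEx and 35.5 to 39.4 CPM in M3 + 10% FEx, and was the 1 DE gene in each comparison with MB10. Its rise was 2.03-fold and 2.90-fold (log2 fold changes 1.02 and 1.54, SE 0.09 and 0.09, n = 3 and 3, edgeR adjusted p = 1.84e-06 and 2.71e-08). The kinase gene mTor itself was at 110 to 123 CPM in MB10 but 166 to 177 CPM in M3 + 10% FEx (0.58, SE 0.06, edgeR adjusted p = 1.10e-05). In M3 + 2.5% FEx mTor was also higher than in MB10, at 136 to 137 CPM (0.26, SE 0.06, edgeR adjusted p = 0.00591). Sesn, an inhibitor of TOR complex 1, was lower at 10% than at 2.5% FEx, 47.5 to 52.2 against 70.6 to 72.5 CPM (-0.51, SE 0.06, edgeR adjusted p = 0.000191). Of its 4760 exonic bases 3097 are shared with CG46429 on the same strand, so reads of these genes may not be told apart and the value may not be that of Sesn alone. REPTOR-BP, the DNA-binding partner of the TOR-controlled factor REPTOR, was at -0.55 in M3 + 2.5% FEx (SE 0.08, edgeR adjusted p = 0.000247). In M3 + 10% FEx it was at -0.47 against MB10 (SE 0.08, edgeR adjusted p = 0.000548). Of the 12 signalling genes 2 rose and 1 fell in M3 + 2.5% FEx, and 6 rose and 2 fell in M3 + 10% FEx. These were 25% and 66.7% called, beside 44.2% and 53.1% of all tested genes. The falls in M3 + 10% FEx included Sesn, and the rises included raptor, named after its values had been seen. Of the 7097 exonic bases of raptor 1669 are shared with Mipp2 on the same strand, so its counts are uncertain to that extent.

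Of 7 lysosomal genes 3 fell and 1 rose in M3 + 2.5% FEx, and 2 fell and 1 rose in M3 + 10% FEx, that is 57.1% and 42.9% called beside 44.2% and 53.1% of all tested genes. CtsL1, the cysteine protease cathepsin L, was at 4392 to 5526 in MB10, 2816 to 3042 in M3 + 2.5% FEx and 2462 to 2940 CPM in M3 + 10% FEx. It fell 1.71-fold and 1.86-fold (log2 fold changes -0.77 and -0.90, SE 0.11 and 0.11, edgeR adjusted p = 0.000170 and 3.24e-05), and it shares 283 exonic bases with CG42806 on the same strand, so its counts are uncertain to that extent. The aspartic protease cathD was at -0.45 and the sterol carrier Npc2a at -0.56 in M3 + 2.5% FEx (edgeR adjusted p = 0.00195 and 0.0121). Npc2a was at 61.2, 50.1 and 84.7 CPM in MB10. With a library left out its value in M3 + 2.5% FEx ran from -0.70 to -0.33. Its call was lost only without M3 + 2.5% FEx replicate 3, at -0.46 (edgeR adjusted p = 0.0509). In M3 + 10% FEx cathD was at -0.46 (edgeR adjusted p = 0.00107), whereas Npc2a, at -0.28, was not called (edgeR adjusted p = 0.153). Of the exonic bases of cathD, 148 of 1784 are shared with puml on the opposite strand. The lysosomal transporter spin moved the other way, with 143 to 150 CPM in MB10 against 170 to 177 and 220 to 225 CPM at 2.5% and 10% FEx, and rose by 0.61 in M3 + 10% FEx (SE 0.05, edgeR adjusted p = 2.19e-06).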

How the data were processed

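Poly(A) RNA of 9 S2R+ samples, 3 per medium, was sequenced by the authors. They trimmed the reads with Trimmomatic 0.36, aligned them to the fly genome dmel_r6.30 with HISAT2 2.1.0 and counted them per gene with featureCounts 1.6.4, and the deposited table holds whole-number counts per gene with no normalization. Depth, given with the results, bounds the precision for counting error only. Here counts were scaled by TMM, filtered with filterByExpr and fitted in 1 model of all 9 libraries with 1 coefficient per medium by edgeR 4.0.16 in R 4.3.3 (quasi-likelihood F test, two-sided, Benjamini-Hochberg over all 8705 genes tested). The SE was taken from the F statistic, and gene lengths and positions from the Ensembl annotation of BDGP6.54. The script was tested on simulated data. Of 87 list symbols 87 were matched.

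The genes and lists were chosen with earlier results of these data known. Named from the wider list were, per comparison, the 6 genes with the largest called change without overlap, and for ref(2)P and Atg8a the 3 genes most alike. Alternatives were DESeq2 1.42.0, other scalings and filters, a fit of only the 2 media compared, a replicate term and leaving out each library. Replicates differed by more than counting noise. The chi-square per degree of freedom was 43.3 to 66.1 in MB10, 9.75 to 21.2 in M3 + 2.5% FEx and 11.4 to 32.4 in M3 + 10% FEx. The 3 media share the estimate of the spread, so the MB10 libraries also bear on the tests between the FEx media. Since nothing states how separate the cultures were, p-values measure the spread between these samples, which may be technical.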

Additional observations from a re-analysis of the deposited data

Results flagged for a closer look

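For 9 genes the change against MB10 differed between the FEx media by the direct edgeR test of 10% against 2.5% FEx. Counted were the autophagy genes followed and the genes named by size of change from the wider list. Thor, Sesn, Tango5, Pi3K59F, spin and Atg18b were named through their calls in this same test, so the count of 9 was in part fixed by that choice. Of all tested genes 10.5% were higher and 11.3% lower in it. Higher at 10% on the log2 scale were Atg9 by 0.32, ref(2)P by 0.22, Pi3K59F by 0.46, Atg18b by 0.34, Tango5 by 0.50, mTor by 0.32, Thor by 0.52 and spin by 0.36. Uvrag, named after its values had been seen and not counted here, was also higher, by 0.33 (edgeR adjusted p = 0.0141). Sesn was lower by a log2 fold change of -0.51, and 3097 of its 4760 exonic bases are shared with CG46429 on the same strand, so this value may not be that of Sesn alone. Sesn, Tango5 and Pi3K59F had opposite signs against MB10 in the FEx media, at 0.14, -0.06 and -0.08 in M3 + 2.5% FEx and -0.36, 0.44 and 0.38 in M3 + 10% FEx, of which only the values at 10% were called. For Pi3K59F the call at 10% against MB10 came with groups that overlapped. ref(2)P and Pi3K59F lost their calls between the FEx media under some of the alternatives given with their values.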

How the results depend on the processing

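The calls of Atg1 and Atg5 in both FEx media, Atg9 in both of its comparisons and ref(2)P in M3 + 2.5% FEx held in all 17 alternatives. Between the FEx media the genes called, all higher, were 1 instead of 2 under DESeq2 size factors, library totals, no filter and the replicate block, and 1 to 3 with a library left out. Of all tested genes 21.5%, 22.9%, 14.3% and 16.4% were called under these settings, in this order, beside 21.8% in the main fit. With a library left out that share ran from 12.4% to 30.5%. In M3 + 10% FEx against MB10 the autophagy genes lower were 1 to 2 with a library left out, beside 1997 to 2528 of all tested genes. On the wider list, leaving out a library gave 7 to 14 higher in M3 + 2.5% FEx, and between the FEx media 7 to 17 called, 6 to 14 higher and 1 to 3 lower. There 2 were lower under library totals, no filter and DESeq2, and 18 called with 3 lower in a fit of only the 2 media. Beside these, 1338 of 8705, 1048 of 14044 and 1026 of 9143 tested genes were lower, against 983 of 8705 in the main fit. The fit of only the 2 media called 33.8% of all tested genes, against 21.8% in the main fit. With a library left out, 1623 to 2233 of all tested genes were higher in M3 + 2.5% FEx against MB10. The genes DE among all tested were 406, 554 and 152 with a minimum of 10 counts, against 742, 955 and 302. Signs turned only for values near 0 that were never called: Atg7 in M3 + 2.5% FEx at -0.023 under upper quartile scaling, Atg8a in M3 + 10% FEx at 0.0078 under DESeq2 size factors, 0.0023 under DESeq2 and 0.0029 with only the 2 media, and between the FEx media under library totals Atg13 at -0.027, Atg101 at -0.0085 and Atg5 at -0.057, with Atg5 at -0.0075 under no filter and -0.0011 under DESeq2. With a library left out Atg7 ran from -0.052 to 0.11 and from -0.13 to 0.035 in M3 + 2.5% and M3 + 10% FEx, Atg8a from -0.037 to 0.015 in M3 + 10% FEx, and between the FEx media Atg13 from -0.020 to 0.057 and Atg5 from -0.0315 to 0.046. Atg8a was called in M3 + 2.5% FEx under upper quartile scaling (-0.17) and Atg18a between the FEx media with only these 2 media (0.18). The cause of these shifts was not tested. Same-numbered libraries did not pair: their mean correlation of deviations was -0.23, 0.014 and 0.028 in the 3 comparisons, and 0, 2 and 3 of 6 libraries correlated best with their own number.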
